A study of Mus musculus with 9 samples.

Results

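The 10 genes described here, Cdkn1a, Mdm2, Ccng1, Trp53inp1, Sesn1, Btg2, Plk2, Phlda3, Zmat3 and Perp, are targets of the transcription factor p53. They were taken by symbol from the 23366 named rows of a table of RNA-seq counts, and all 10 were among the 14988 genes tested. Total RNA was sequenced from mouse embryonic stem cells of strain 129 SvJae F1 at passage 21, kept in medium with serum and leukaemia inhibitory factor. Wild-type cells (3 libraries) were compared with cells in which Sirt6, the gene of a histone deacetylase, was knocked out (3 libraries). Both groups had the same strain, passage and medium according to the labels, which do not say how the knockout was made or whether it is 1 clone. A further group, wild-type cells without glucose (3 of the 9 samples), was not analysed here. The labels do not state that replicates were separate cultures, so the p-values rest on a spread between libraries that may be only technical.

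The p53 protein, encoded by Trp53 in the mouse, binds DNA as a tetramer and switches on genes that stop the cell cycle, repair DNA, adjust metabolism or start cell death. Its level is held down by MDM2, a ubiquitin ligase whose gene is itself a p53 target, so that the pathway limits itself. Mouse embryonic stem cells are known to hold much p53 while dividing fast, with little p21, the product of Cdkn1a. Several of these targets are also controlled by other transcription factors, among them the FOXO family.

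Starting regions of the members are shown for the genes in which a p53 element or another palindrome was found near a start. Sequences are from RefSeq, build GRCm38.p6, and run from 250 bases before a gene's start to 50 bases after it. The table held 9 such windows for 7 of the 10 genes, with entries for Btg2, Ccng1, Cdkn1a, Mdm2, Phlda3, Plk2 and Sesn1 and none for Perp, Trp53inp1 and Zmat3. The p53 consensus is a palindromic unit of 10 bases, so that a search on either strand gives the same hits. A full element was taken as 2 such units end to end with at most 1 mismatch in all. Full elements lay in 2 of the 9 windows, the upstream Cdkn1a window (chr17:29090729-29091028, plus strand) and the Ccng1 window (chr11:40755237-40755536, minus strand), and in 0.067% of all 32851 windows of the table. The capitals mark the element in the following pair.
Cdkn1a: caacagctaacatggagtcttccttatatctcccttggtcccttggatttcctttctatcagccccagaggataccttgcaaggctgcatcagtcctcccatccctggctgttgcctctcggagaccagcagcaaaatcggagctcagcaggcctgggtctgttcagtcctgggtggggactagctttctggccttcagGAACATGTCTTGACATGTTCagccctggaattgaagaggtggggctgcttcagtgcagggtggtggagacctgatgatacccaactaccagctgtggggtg
Ccng1: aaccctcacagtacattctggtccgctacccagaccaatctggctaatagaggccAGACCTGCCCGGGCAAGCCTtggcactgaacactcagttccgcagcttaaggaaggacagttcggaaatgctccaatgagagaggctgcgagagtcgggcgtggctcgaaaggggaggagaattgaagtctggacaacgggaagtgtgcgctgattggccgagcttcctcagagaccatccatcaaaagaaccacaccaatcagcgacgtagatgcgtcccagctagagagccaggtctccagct

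The Cdkn1a element began 51 bases before the upstream of the gene's 2 listed starts, and the Ccng1 element 195 bases before its start. The second Cdkn1a window (chr17:29093519-29093818, plus strand) held no unit without mismatch. Single units without mismatch stood in the Mdm2 window (gaacttgcct, 186 bases before the start) and in the downstream of both Sesn1 windows (aagcttgttt, 173 bases before the start). The upstream Cdkn1a window held another outside its full element (ggactagctt, 73 bases before the start), and 8.36% of all windows held at least 1. No full element or perfect unit was found in the Btg2, Plk2 or Phlda3 windows. The Btg2 window (chr1:134079106-134079405, minus strand) and the Plk2 window (chr13:110394794-110395093, plus strand) each held TGACGTCA, the palindrome bound by CREB and ATF factors, which 1.79% of all windows hold. This motif was looked for after the sequences had been read. It is in capitals below, 166 bases before the Btg2 start and 62 before the Plk2 start.
Btg2: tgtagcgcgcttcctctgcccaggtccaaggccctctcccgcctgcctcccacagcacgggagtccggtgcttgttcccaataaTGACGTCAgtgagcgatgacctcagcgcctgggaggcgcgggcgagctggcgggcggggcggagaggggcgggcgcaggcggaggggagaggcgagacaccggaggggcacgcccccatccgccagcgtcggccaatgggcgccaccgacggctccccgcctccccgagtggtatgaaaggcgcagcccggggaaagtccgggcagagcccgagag
Plk2: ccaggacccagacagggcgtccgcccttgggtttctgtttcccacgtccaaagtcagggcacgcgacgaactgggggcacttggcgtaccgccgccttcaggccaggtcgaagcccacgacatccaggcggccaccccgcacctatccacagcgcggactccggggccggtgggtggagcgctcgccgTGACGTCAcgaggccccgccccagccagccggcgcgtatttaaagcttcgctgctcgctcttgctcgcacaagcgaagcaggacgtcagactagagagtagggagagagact

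A match describes letters in a window, and the counts, made per gene, do not tell which start was used.

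Sirt6 was checked first. Its counts were 348, 341 and 342 in wild type and 12, 6 and 6 in the knockout, in the direction of the labels. Total counts ran from 20107037 to 29267115 per library. The ribosomal precursor Rn45s took 7.54% to 9.23% of counts in wild type and 3.30% to 4.91% in the knockout. Defining stem cell genes were abundant in both groups: the summed level of 10 markers, led by Pou5f1, Dppa5a and Zfp42 in wild type, was 6384 to 6970 CPM (counts relative to library size, scaled by the trimmed mean of M values, TMM) in wild type and 6561 to 8160 CPM in the knockout. Of these markers 3 were higher, Dppa5a and Tdgf1 among them, and 5 lower, among them Pou5f1 and Nanog, with a median of -0.22 (log2). Endoderm markers, mostly Lama1 and Sparc, summed to 410 to 434 CPM in wild type and 110 to 121 CPM in the knockout (8 of 10 lower, the other 2 not tested). Markers of embryonic fibroblasts summed to 8.39 to 9.66 CPM and 50.1 to 55.7 CPM (8 of 13 higher, the other 5 not tested), and Lum had 0 counts in every library. Trophectoderm markers summed to 76.9 to 79.5 and 116 to 127 CPM (6 of 10 tested, 4 higher and 1 lower). Krt8 and Tfap2c, both higher, led in the knockout. Tead4 led in wild type and was the 1 that was lower, with a 3.80-fold fall. Neuroectoderm markers, led by Gbx2 and Tubb3, summed to 189 to 192 and 176 to 197 CPM. Of the 10 markers 6 were tested, 3 higher and 3 lower. Tubb3 rose from 59.3 to 126 CPM and Gbx2 fell from 93.9 to 30.3 CPM. Kdm5d, on the Y chromosome, was at 0 in all wild-type libraries and counted 94, 65 and 32 times in knockout replicates 1 to 3. Ddx3y and Uty, also Y-linked, were counted in wild type (180 to 229 and 173 to 204) and rose in the knockout (1622 to 2959 and 703 to 1174). Xist, the X-linked RNA of X inactivation, was counted 815 to 1175 times in wild type and 78 to 117 times in the knockout. The groups thus differ in sex chromosome genes as well as in Sirt6. Such other differences between the cells cannot be told apart from the loss of Sirt6, and the part of these cell types in the results was not tested. In bulk RNA, fewer cells expressing a gene and less RNA per cell cannot be told apart either.

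The p53 targets did not move as a block. Of the 10 genes, 6 rose in the knockout (Trp53inp1, Sesn1, Btg2, Plk2, Ccng1 and Cdkn1a), 2 fell (Zmat3 and Perp) and 2, Mdm2 and Phlda3, did not pass the test (edgeR's quasi-likelihood test, adjusted p under 0.05 over all genes tested). Much of the transcriptome differed between these groups: 55.7% of tested genes were called, 27.9% higher and 27.8% lower. With total counts in place of TMM the median of all genes was 0.13 (log2) against 0.01, and 62.2% of calls over all genes were higher against 50.1%. The same 6 members rose in each of the 13 alternatives. The median log2 fold change of the members was 0.67, or 0.79 with total counts. Wild-type and knockout libraries did not overlap in 9 of the 10 genes, as in 63.2% of all tested genes.

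**Figure D1:**
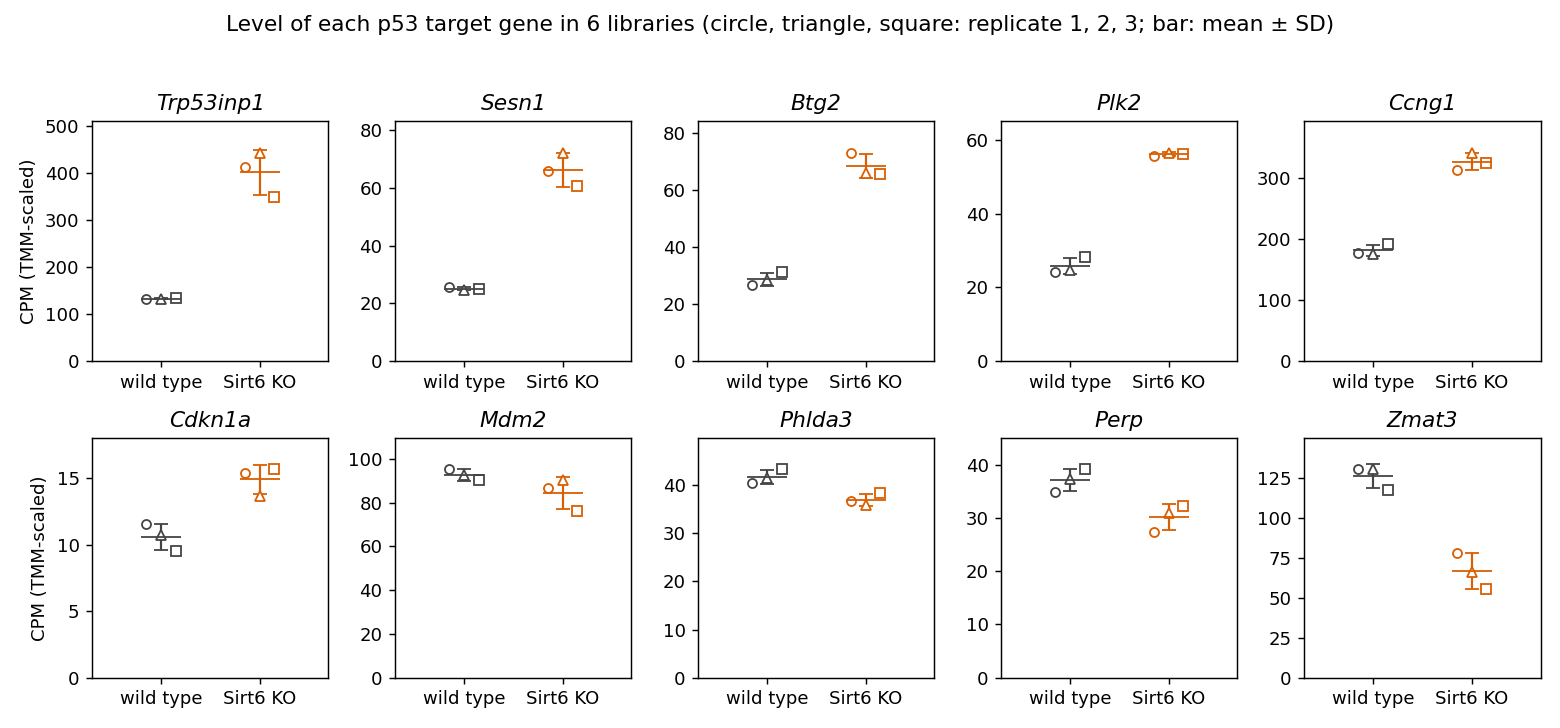
Level of each of the 10 p53 target genes, in CPM (TMM-scaled, linear axes from 0), in 3 wild-type and 3 Sirt6 knockout libraries, with circles, triangles and squares for replicates 1, 2 and 3 and bars for the mean ± SD. The top row and Cdkn1a have all knockout libraries above all wild-type libraries; Mdm2 is the one gene whose groups overlap.

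Among the genes that act on the cell cycle, Btg2 and Plk2 rose most. Btg2, an antiproliferative cofactor of mRNA deadenylation, stood at 26.6, 28.4 and 31.2 CPM in wild-type replicates 1 to 3 and at 73.3, 66.2 and 65.8 CPM in knockout replicates 1 to 3. Every knockout library lay far above the wild-type ones, a 2.38-fold rise (log2 fold change 1.25 ± 0.10 SE, adjusted p = 2.86e-06, edgeR). Btg2 lies on chromosome 1, where the median log2 fold change of 776 tested genes was -0.30, against 0.01 over all tested genes.

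Plk2, a polo-like kinase of centriole duplication and stress checkpoints, was at 24.3, 24.7 and 28.3 CPM in wild type. In the knockout it read 55.6, 56.5 and 56.3 CPM, the tightest trio among the members, with a coefficient of variation of 0.896%. Its counts there were 1765, 1381 and 1124, for which counting alone would usually give a wider spread. The rise was 2.18-fold (log2 1.12 ± 0.10 SE, adjusted p = 4.82e-06, edgeR).

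Cdkn1a, whose product p21 inhibits cyclin-dependent kinases and which is the classical readout of p53 activity, had the lowest level per length of transcript among the members in both groups. Its values were 11.5, 10.7 and 9.54 CPM in wild type and 15.4, 13.7 and 15.7 CPM in the knockout. The groups did not overlap, but the rise was the smallest of the 6, at 1.41-fold (log2 0.49 ± 0.12 SE, adjusted p = 0.00446, edgeR). Counts for it were 247 to 309 in wild type and 313 to 488 in the knockout. GENCODE lists an antisense gene model over 273 exonic bases of Cdkn1a, and with no strand setting stated its reads could not be separated.

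Ccng1, which encodes cyclin G1, a partner of protein phosphatase 2A that acts on MDM2, was the most abundant member per length of transcript. Its values were 178, 175 and 192 CPM in wild type and 314, 342 and 326 CPM in the knockout. It rose 1.80-fold, with all knockout libraries above all wild-type ones (log2 0.85 ± 0.09 SE, adjusted p = 2.71e-05, edgeR).

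Mdm2, the main brake on p53, did not follow them. It was at 95.4, 92.5 and 90.2 CPM in wild type and at 86.8, 90.5 and 76.1 CPM in the knockout. Knockout replicate 2 lay inside the wild-type range, and the log2 fold change was -0.13 ± 0.10 SE (adjusted p = 0.265, edgeR), between -0.18 and -0.01 over the 13 alternatives. The adjusted p does not show that the level was equal.

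The largest rises were in a stress cofactor and a metabolic regulator. Trp53inp1, which encodes a stress-induced p53 cofactor that also acts in autophagy, was at 132, 132 and 134 CPM in wild type. The knockout libraries held 413, 444 and 349 CPM, more widely spread than in wild type but all far above it. This made it the strongest rise of the set, at 3.03-fold (log2 1.60 ± 0.11 SE, adjusted p = 1.00e-06, edgeR), which ranked 1088 from the top among all tested genes.

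Sesn1, a sestrin that senses amino acids and restrains mTORC1, was at 25.6, 24.6 and 24.8 CPM in wild type and 65.9, 72.2 and 60.5 CPM in the knockout. No wild-type library came near the knockout values. It rose 2.64-fold (log2 1.40 ± 0.10 SE, adjusted p = 1.21e-06, edgeR). Its chromosome 10 had a median log2 fold change of 0.16 over 679 tested genes.

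Phlda3 and Perp, tied like Trp53inp1 to cell death and survival signalling, did not rise. Phlda3, a p53-induced inhibitor of the kinase AKT, was at 40.4, 41.5 and 43.3 CPM in wild type and 36.8, 35.8 and 38.3 CPM in the knockout. All knockout values were below all wild-type values, yet the difference was small (log2 fold change -0.18 ± 0.09 SE, adjusted p = 0.123, edgeR). Without knockout replicate 3 it passed the test, at -0.22 and an adjusted p of 0.0466 (edgeR). Like Btg2 it lies on chromosome 1.

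Perp, a membrane protein of desmosomes with a role in p53-dependent death, was at 34.9, 37.3 and 39.2 CPM in wild type. In the knockout it was at 27.4, 31.0 and 32.2 CPM, without overlap. It fell 1.23-fold (log2 -0.30 ± 0.10 SE, adjusted p = 0.0273, edgeR). The call was not stable: it ended with total counts (-0.18, adjusted p = 0.175) and without wild-type replicate 1, 2 or 3 or knockout replicate 2 (adjusted p of 0.0541, 0.0881, 0.110 and 0.0596, edgeR).

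Zmat3, a zinc finger protein that binds RNA and acts in splicing, showed the one large fall. Its wild-type values were 130, 130 and 118 CPM and its knockout values 78.1, 66.2 and 55.5 CPM. The highest knockout library stayed well below the lowest wild-type one. The fall was 1.89-fold (log2 -0.92 ± 0.13 SE, adjusted p = 0.000112, edgeR), with the widest relative spread of the members in the knockout, a coefficient of variation of 17.0%.

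**Figure D2:**
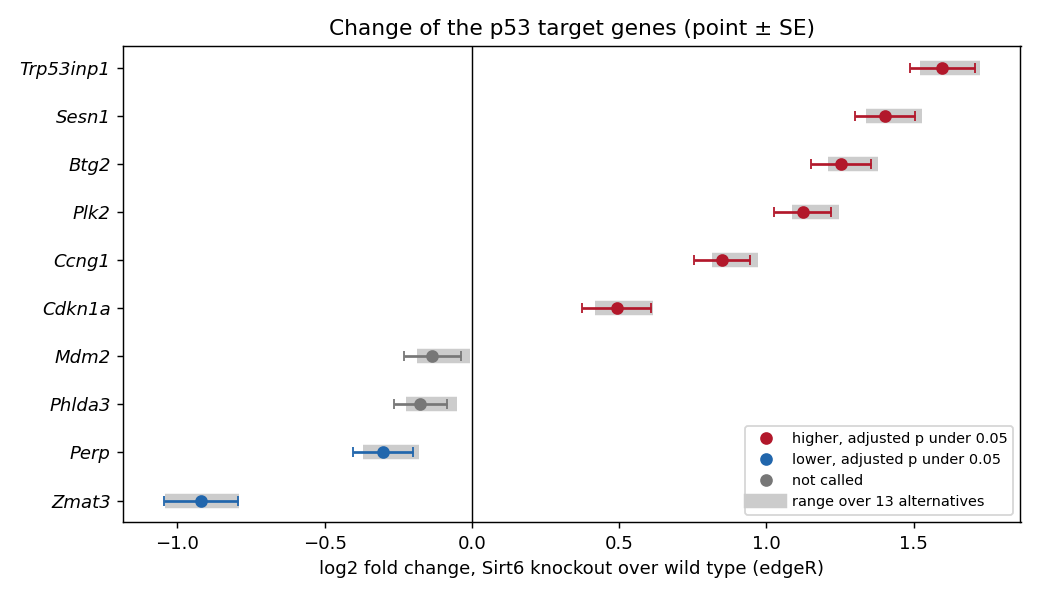
Log2 fold change of the 10 genes, Sirt6 knockout over wild type (edgeR, points ± SE), red for higher, blue for lower and grey for not called, with grey bands for the range over 13 alternative analyses. The bands of the 6 higher genes and of Zmat3 stay well away from 0, while those of Mdm2, Phlda3 and Perp lie between -0.37 and -0.01.

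In the authors' deposited table of knockout against wild type, the same 6 genes were higher, Perp and Zmat3 lower, and Mdm2 and Phlda3 above an adjusted p of 0.05. The log2 fold changes there included 1.58 for Trp53inp1 and -0.91 for Zmat3 in the authors' deposited table, made from the same libraries.

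Ratios of counts inside a library do not depend on how libraries are scaled, and 4 were computed on genes chosen after their values were seen. Sesn1 had 0.197, 0.189 and 0.211 counts per count of Zmat3 in wild type and 0.843, 1.09 and 1.09 in the knockout. Trp53inp1 had 1.39, 1.42 and 1.49 counts per count of Mdm2 in wild type and 4.76, 4.90 and 4.59 in the knockout. Even between a pair of risen genes the ratio moved: Trp53inp1 per count of Cdkn1a went from 12.6 ± 1.34 to 27.2 ± 5.09 (SD, n = 3; exact permutation test). The groups did not overlap in any of the 4 ratios. As the genes were chosen with their values known, neither this nor the following p is independent support. The two-sided exact permutation p was 0.1 for each ratio (0.1 after Benjamini-Hochberg adjustment over the 4), the smallest that 3 against 3 allows.

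Divided by transcript length (the union of exons in GENCODE M21, GRCm38), the order of levels also shifted. In wild type Ccng1 led at 51.8 ± 2.55 CPM per kilobase (SD, n = 3), then Phlda3 (26.8 ± 0.964). Trp53inp1 (20.5 ± 0.220), Perp (19.0 ± 1.10) and Mdm2 (18.2 ± 0.506) followed, of which Perp and Mdm2 lie within their SDs of each other. Zmat3 (11.0 ± 0.641) and Btg2 (10.5 ± 0.833) also lie within their spread, as do Sesn1 (6.29 ± 0.137) and Plk2 (5.74 ± 0.494), and Cdkn1a was last at 2.98 ± 0.280. In the knockout Ccng1 (93.2 ± 4.03) was followed by Trp53inp1 (62.1 ± 7.45), then by Btg2 (24.9 ± 1.53) and Phlda3 (23.7 ± 0.798), which did not differ beyond their spread. Mdm2 (16.6 ± 1.47), Sesn1 (16.6 ± 1.47) and Perp (15.5 ± 1.28) could not be ordered. Plk2 (12.5 ± 0.112), Zmat3 (5.82 ± 0.991) and Cdkn1a (4.19 ± 0.302) came last. Zmat3 went from the level of Btg2 to the next to last place.

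Replicates of the members were close. Their median coefficient of variation was 5.36% in wild type and 7.73% in the knockout, beside 6.79% and 14.1% over all tested genes. Many of the tested genes have lower levels than the members, and the comparison was not matched for level. Knockout replicate 2 held the highest knockout value for 5 members and knockout replicate 3 the lowest for 5. The summed level of the 10 genes was 697 to 711 CPM in the wild-type libraries and 1075 to 1218 CPM in the knockout libraries.

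p53 itself and its regulators were read next. Trp53 was at 388, 408 and 407 CPM in wild type and 287, 282 and 288 CPM in the knockout. It fell 1.40-fold without overlap of the groups (log2 -0.49 ± 0.09 SE, adjusted p = 0.000987, edgeR). Mdm4, the relative of Mdm2 that masks the p53 activation domain, was at 181, 171 and 163 CPM in wild type and 106, 104 and 75.4 CPM in the knockout. It fell 1.80-fold (log2 -0.85 ± 0.13 SE, adjusted p = 0.000264, edgeR). Mdm2 had 0.540 ± 0.0138 counts per count of Mdm4 in wild type against 0.898 ± 0.0990 in the knockout (SD, n = 3). Mdm4 lies on chromosome 1 and Mdm2 on chromosome 10, where the median log2 fold changes were -0.30 and 0.16. Of 25 tested genes of the p53 family and its regulators, 4 rose and 8 fell, a share called of 48% beside 55.7% of all genes, and the median change was 0.08 (log2). With total counts as the scaling, 7 rose and 6 fell, so the balance of directions among these genes depended on the scaling. The acetyltransferase genes Ep300 and Crebbp, whose products acetylate p53, fell from 209 ± 19.3 to 82.6 ± 13.1 CPM and from 117 ± 11.0 to 44.8 ± 7.65 CPM (SD, n = 3; adjusted p of 9.41e-06 and 9.65e-06, edgeR). The checkpoint kinase gene Chek2 rose from 54.2 ± 2.81 to 91.5 ± 0.754 CPM (SD, n = 3; adjusted p = 4.15e-05, edgeR).

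Other p53 targets, listed by role, moved both ways as well. Of 37 listed genes 36 were in the table and 35 were tested: 12 rose, 9 fell and 14 did not pass, 60% called, near the 55.7% of all tested genes, and their median change on the log2 scale was 0.13 against 0.01 for all tested genes. Of 12 tested genes of cell death 7 rose and 2 fell, 75% called, with a median of 0.40. Over the 13 alternatives 5 to 8 of this list rose and 2 fell, with the fewest rises without wild-type replicate 1. Bbc3, which encodes the BH3-only protein PUMA, rose from 8.65, 9.21 and 9.77 CPM to 28.1, 21.2 and 20.1 CPM (2.52-fold, adjusted p = 2.00e-05, edgeR). Pmaip1, which encodes NOXA, rose 1.71-fold, and the kinase gene Dapk1 and Trp53i11 fell 1.53-fold and 2.84-fold. The p53 target Bax, named after its values were seen, rose from 142 to 188 CPM (log2 0.40, adjusted p = 0.0160, edgeR). Without wild-type replicate 1 or 2 its log2 fold change was 0.37 and 0.38 and the call was lost (adjusted p = 0.0729 and 0.0694, edgeR). Without knockout replicate 3 it was 0.25 and still called.

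All 8 targets of metabolism and redox control were called, beside 55.7% of all tested genes, 3 higher and 5 lower, with a median of -0.49. Sesn2, one of the 5, lost its call with total counts and without wild-type replicate 1 or 2 or knockout replicate 2, which left 7 of 8. Ddit4, an inhibitor of mTORC1 that also answers to hypoxia, rose from 9.77, 8.75 and 9.08 CPM to 40.8, 33.9 and 37.1 CPM (4.05-fold, adjusted p = 2.56e-07, edgeR). The epoxide hydrolase gene Ephx1 and the xylulose reductase gene Dcxr rose 2.88-fold and 2.59-fold. Tigar, which encodes a fructose bisphosphatase and stands in the table under its older symbol 9630033F20Rik, fell from 80.8 ± 2.23 to 45.7 ± 2.27 CPM (SD, n = 3).

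Outside the 10 genes, targets in DNA repair and arrest mostly did not pass. Of these lists 14.3% and 25% were called, beside 55.7% of all tested genes. Cdkn1a, Btg2 and Plk2, which also act on the cell cycle and all rose, are not in the arrest list. In DNA repair 1 of 7 rose, Xpc, a sensor of DNA lesions, at 1.36-fold (adjusted p = 0.0114, edgeR), and the other 6 did not pass. In cell cycle arrest 1 of 4 rose, Sfn, which encodes the 14-3-3 sigma protein, at 1.58-fold (adjusted p = 0.000220, edgeR), and the other 3 did not pass. Among 4 other feedback genes 2 fell, the ubiquitin ligase gene Cop1 (older symbol Rfwd2, 1.43-fold) and Pml (1.66-fold). Ppm1d and Rchy1 did not pass, so that 50% were called, near the share of all tested genes.

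**Figure D3:**
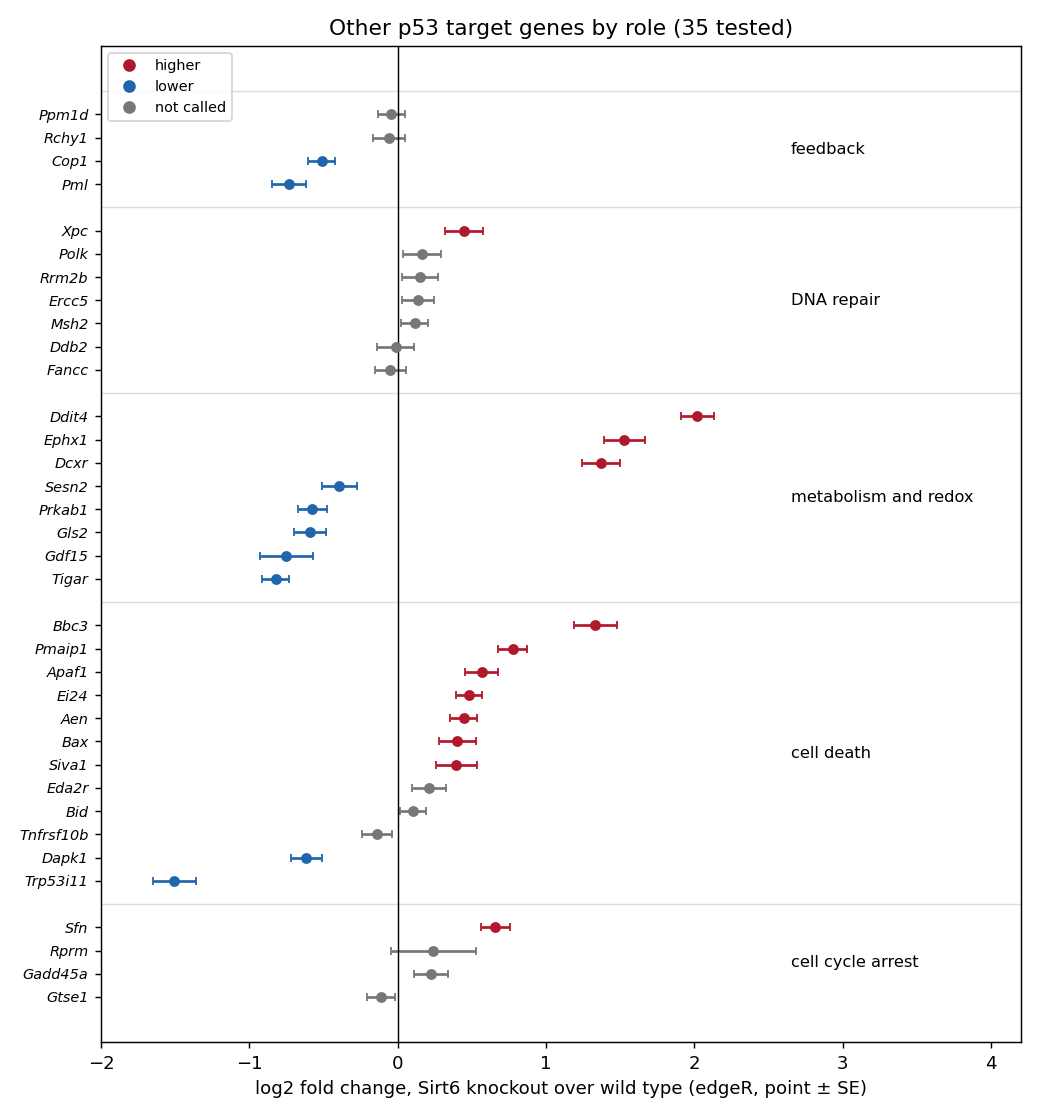
Log2 fold change (edgeR, point ± SE), Sirt6 knockout over wild type, of 35 tested p53 targets outside the 10 genes, grouped by role, red for higher, blue for lower and grey for not called. Cell death genes lie mostly to the right of 0, metabolic genes on both sides of it, and 6 of the 7 DNA repair genes were not called.

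Relatives of the members in the same gene families were compared beside them. Of 21 tested paralogs 5 rose and 8 fell, 61.9% called beside 55.7% of all tested genes, and the median change was -0.02 (log2). With total counts 7 rose and 7 fell. Ccng2, the relative of Ccng1, rose from 9.24, 9.50 and 11.8 CPM to 36.2, 39.6 and 32.4 CPM, 3.54-fold (adjusted p = 1.09e-06, edgeR). The following 5 genes were named after their values were seen. Sesn3 rose 2.38-fold beside Sesn1, but Sesn2 fell 1.32-fold. The Sesn2 call ended with total counts (adjusted p = 0.116) and without wild-type replicate 1 or 2 or knockout replicate 2 (adjusted p of 0.0606, 0.0574 and 0.0751, edgeR). Trp53inp2, an autophagy cofactor, rose 1.98-fold beside Trp53inp1. Cdkn1c, the imprinted relative of Cdkn1a, fell 2.0-fold while Cdkn1a rose. Phlda2, an imprinted relative of Phlda3, fell 2.30-fold.

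Polo-like kinases diverged. Plk5 rose 3.25-fold, from 4.92 ± 0.532 to 16.0 ± 1.47 CPM, and Plk3, itself linked to p53, fell 2.29-fold, from 31.6 ± 1.78 to 13.7 ± 1.63 CPM (SD, n = 3). Among the ZMAT genes, Zmat4 fell with Zmat3, 3.0-fold, from 19.8 ± 1.14 to 6.58 ± 0.602 CPM (SD, n = 3).

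**Figure D4:**
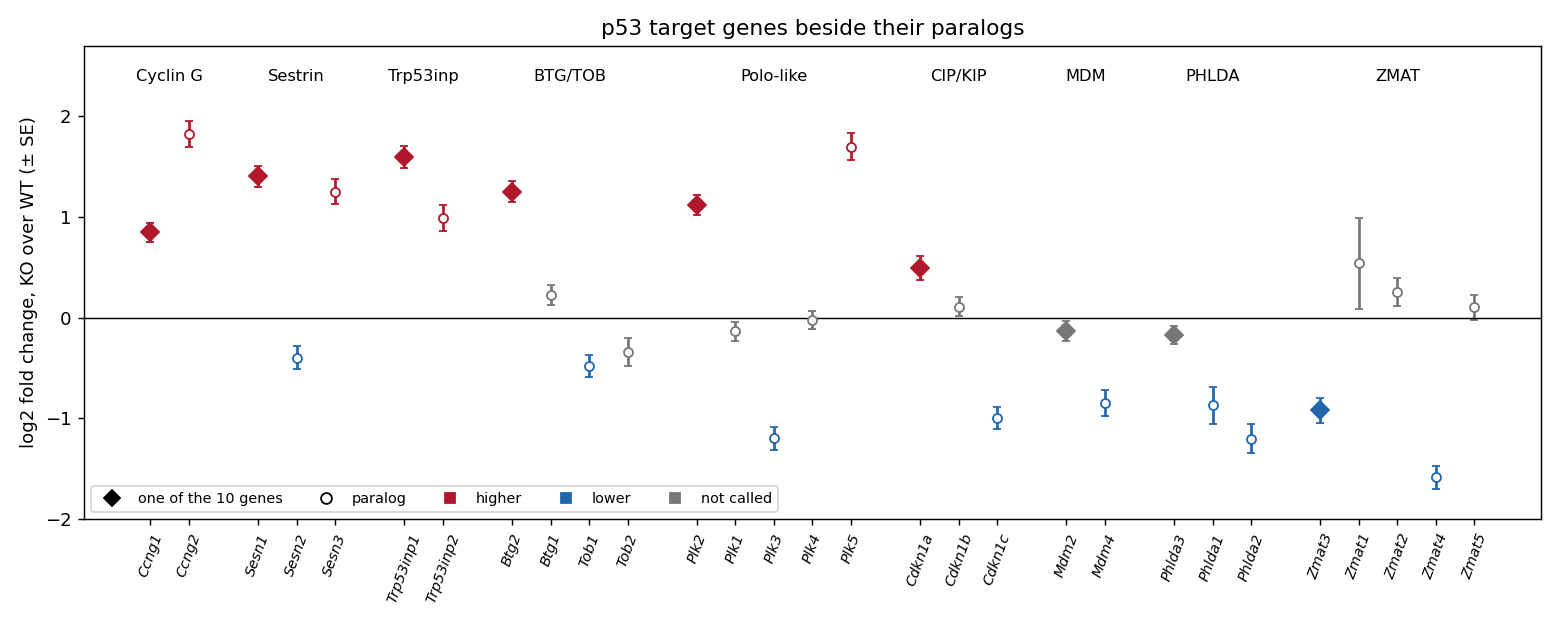
Log2 fold change (edgeR, ± SE), Sirt6 knockout over wild type, of 9 of the 10 genes (filled diamonds) beside paralogs (open circles), by family. Red is for higher, blue for lower and grey for not called. Of the tested paralogs all but Ccni, which was higher, are shown. Cyclin G and Trp53inp relatives are higher together, while sestrins and polo-like kinases lie on both sides of 0.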

How the data were processed

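RNA-seq counts of 6 libraries (3 wild type, 3 Sirt6 knockout) were used, matched to samples by column name and title. The authors deposited whole-number counts per gene symbol that had not been normalized. TopHat2 2.0.10, HTSeq 0.6.1, the build mm9 and DESeq2 are named in the submitters' processing notes without roles. The strand setting and annotation are not stated in the labels or headers. Per the file headers, the authors' deposited comparison holds a mean signal, log2 fold changes, a Wald score, and p-values before and after adjustment.

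Counts were tested by edgeR 4.0.16 (R 4.3.3) with glmQLFit and glmQLFTest, TMM factors and filterByExpr, two-sided, with Benjamini-Hochberg adjustment over 14988 genes and a threshold of 0.05. The SE is the absolute log2 fold change over the root of F. The test was checked on simulated data with few changed genes and an equal spread in both groups. These data differ from that setting, so error rates under their conditions were not tested. Members and lists were chosen with earlier results of these data known. By rule the named genes were Sirt6, all members, Trp53 and Mdm4. To these came up to 4 called genes per list with the smallest adjusted p, and up to 3 markers by CPM. Nanog, Lum, Ppm1d, Rchy1, Rn45s, Kdm5d, Ddx3y, Uty and Xist were named outside this rule. So were the genes marked above as named after their values were seen. Of the death list, Pidd1 was not matched, and Fas was in the table but not tested. Alternatives were 2 scalings, 2 filters, DESeq2 1.42.0, limma-voom (limma 3.58.1), a replicate block and each library left out. Lengths, chromosomes and overlaps came from GENCODE M21 (GRCm38), not the build of the notes, and coordinates are printed for RefSeq windows alone. Libraries held 20107037 to 29267115 counts. All pairs of replicates differed beyond sampling noise (smallest chi-square 3.73 per degree of freedom).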

Additional observations from a re-analysis of the deposited data

How the results depend on the processing

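The number of members called was 7 to 9 over the 13 alternatives, with 6 higher each time and 1 to 3 lower; leaving out single libraries gave 7 to 9. Cdkn1a, Btg2, Plk2, Ccng1, Trp53inp1, Sesn1 and Zmat3 kept their direction and call in all 13. Calls over all genes ran from 6986 to 9876 when single libraries were left out, the most without knockout replicate 1. The replicate number as a block gave 9352 calls over all genes and 8 called members. Same-numbered libraries deviated together for numbers 1 and 3 (correlations of 0.208 and 0.201) but not for number 2 (-0.0250). The crossed pairs of numbers 1 and 3 had negative correlations (-0.216 and -0.207). Deviations were taken from each group's mean and cancel within a group, so these negative values follow largely from the others. The labels give the number only, and whether same-numbered libraries were handled together was not tested. The other p53 targets gave 18 to 22 calls without single libraries against 21. In the smaller lists, 2 genes of cell cycle arrest were called with total counts and without knockout replicate 1, and 2 of DNA repair without knockout replicate 3, against 1 each. With 3 libraries a group, small differences such as that of Phlda3 may not be detectable.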
